A study of Mus musculus with 24 samples.

Results

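Open chromatin in A/J liver was compared between high fat and control diet through the FAIRE-seq peak lists of both groups. The peaks of chromosomes 1 to 19 in the HF list and the Control list were merged wherever they shared at least 1 bp. This gave 38052 regions, against 49364 regions when all 6 FAIRE lists of the series were merged in the same way. A region was called HF-only, Control-only or shared by the lists that held a peak in it.

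The HF group was A/J liver after 16 weeks of high fat diet, and the Control group was A/J liver after 16 weeks of control diet. Lists outside the comparison came from A/J liver after 8 weeks of high fat and then 8 weeks of control diet (Reversal), and from C57BL/6J liver on HF, Control and Reversal. Each group held 2 libraries, 12 FAIRE libraries in all, and each group was given as 1 list, so that no comparison between lists has a replicate check and no test was run. Sex and age of the animals are not given in the labels, nor is whether both libraries came from separate animals. How deeply each library was sequenced is likewise not stated there.

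FAIRE recovers DNA that formaldehyde crosslinks poorly to histones, mainly at promoters, enhancers and insulators where nucleosomes are sparse or displaced by regulatory proteins. In liver such sites are held open largely by hepatocyte transcription factors and by nuclear receptors that respond to fatty acids, sterols and hormones. A/J is an inbred strain known to gain less weight and store less liver fat on high fat diet than C57BL/6J. Positions below are in mm9, counted from 1, an assembly made from C57BL/6J DNA. Genes are not named and no sequence is printed, because no gene annotation or genome of that assembly was used here. The liver label could therefore not be set against liver marker genes.

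The HF list held 33216 peaks on chromosomes 1 to 19 over 21.0 Mb, against 35811 peaks over 23.6 Mb in the Control list. Its median peak was 481 bp wide, against 502 bp on Control. The lowest signal was 0.107 in the HF list and 0.119 in the Control list. Signal values come from the authors, who state no scale for them, so they serve here to order peaks within a list, as a percentile where 100 is the strongest. Serial numbers in the peak names showed that the HF list held 22.5% of 150636 numbered peaks and the Control list 26.4% of 137787. Regions without a peak may still have been open, below the level at which that list ends.

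Beside the comparison of diets, the strain label of each list was set against regions known from the other lists. Raised shares of regions of the other strain were found in 3 of the 6 lists: A/J HF, C57BL/6J HF and C57BL/6J Reversal. Of 4041 regions with a peak in every C57BL/6J list and in neither the A/J Control nor the A/J Reversal list, 1029 held an A/J HF peak, a share of 25.5% (95% Wilson interval 24.1 to 26.8). The corresponding share was 3.77% for the A/J Control list (118 of 3130 regions, 3.16 to 4.50) and 1.34% for the A/J Reversal list (41 of 3053, 0.991 to 1.82). These intervals cover nothing but counting error, since regions are not replicates of a diet.

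**Figure D1:**
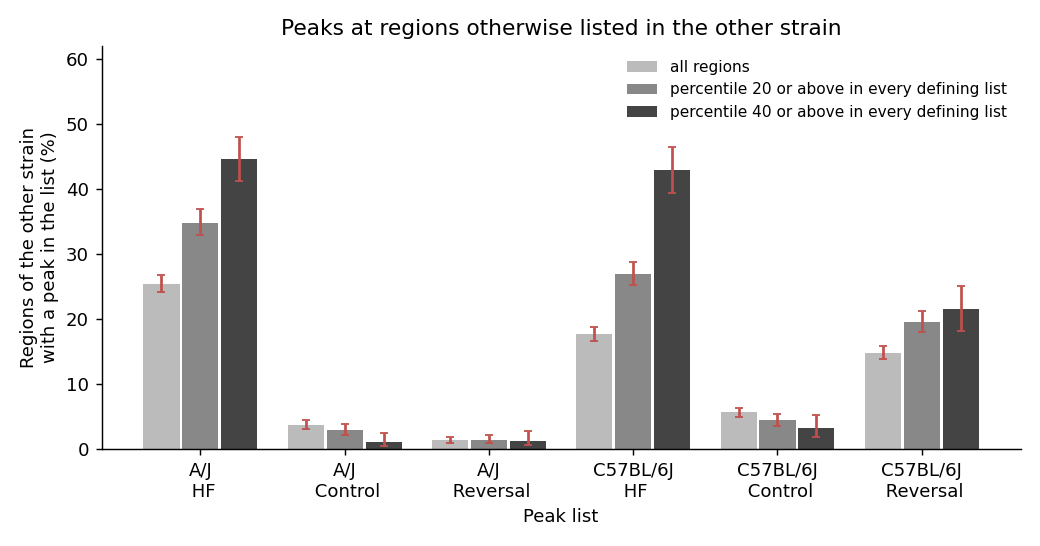
Share of regions, in percent, that held a peak in each of the 6 lists although they were otherwise listed in the other strain alone. Shades give all such regions and those at percentile 20 or 40 or above in every list that defines them, and error bars are 95% Wilson intervals. The A/J HF list reached 25.5% over all such regions and 44.6% at percentile 40 or above, against 3.77% and 1.08% for A/J Control.

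The stronger the C57BL/6J region, the more often the A/J HF list held it. At percentile 40 or above in all C57BL/6J lists the share was 44.6% for A/J HF (370 of 830) and 1.08% for A/J Control (5 of 465). At percentile 60 or above it was 66.8% (131 of 196) for A/J HF, while A/J Control held 0 of 65, which allows up to 5.58%. Those 131 regions had a median percentile of 26.1 in the A/J HF list, against a median of 75.4 for their mean over the C57BL/6J lists. The order of these medians was fixed by the selection. The regions had to reach percentile 60 in the C57BL/6J lists, and HF-only regions reached at most percentile 56.0 in the HF list.

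The reverse check took regions listed in A/J alone. Both checks of A/J HF overlap the classes described below. Regions of the first check with an A/J HF peak are HF-only, and regions of the reverse check without one are Control-only. The checks are therefore not separate from those classes. Of 6683 regions in the A/J Control and Reversal lists and in no C57BL/6J list, the A/J HF list held 63.5% (62.3 to 64.6). The A/J Control list held 94.2% of 4505 regions defined in the same way (93.4 to 94.8). At percentile 40 or above the A/J HF list held 973 of 986, so that strong A/J regions were nearly all present there. Of regions otherwise listed in A/J alone, the C57BL/6J HF list held 17.7% of 5153 (16.7 to 18.7) and the C57BL/6J Reversal list 14.9% of 4982 (13.9 to 15.9), against 5.65% of 4496 for C57BL/6J Control (5.01 to 6.36). At percentile 40 or above these shares were 42.9% for C57BL/6J HF, 21.5% for C57BL/6J Reversal and 3.20% for C57BL/6J Control. At percentile 60 or above they were 32.9% for C57BL/6J HF (24 of 73), 15.5% for C57BL/6J Reversal (9 of 58) and 3.92% for C57BL/6J Control (2 of 51). Every list with a raised share came from a group fed high fat, for 8 weeks on Reversal. So did A/J Reversal, whose share of C57BL/6J regions was 1.34% in the first check. With 1 list per group, a change on diet and a difference in the DNA that entered a list, such as libraries mixed or exchanged between strains, cannot be told apart. This holds for A/J HF and also for C57BL/6J HF and Reversal, which serve as outside lists below. The main counts below are therefore also given by whether C57BL/6J lists held a peak in the region.

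Most open regions of A/J liver were listed on both diets. Shared regions numbered 30172, or 79.3% of the 38052 (78.9 to 79.7). HF-only regions numbered 2451, which is 6.44% of regions, and Control-only regions 5429, which is 14.3%. Control-only regions were thus 2.22 times as many. When the Control list was shortened to its 33216 strongest peaks, the length of the HF list, the counts were 3259 HF-only and 3669 Control-only, a ratio of 1.13, so that the imbalance was small at equal list length. Among regions with a peak in every C57BL/6J list the imbalance turned round, with 1177 HF-only against 303 Control-only regions. Among regions without any C57BL/6J peak there were 740 HF-only and 4311 Control-only regions. In C57BL/6J the same comparison of HF with Control gave 11.1% HF-only and 15.9% Control-only of 37737 regions.

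Regions listed on 1 diet were weak and narrow. HF-only peaks had a median percentile of 11.0 in the HF list (quartiles 4.90 and 19.9), and Control-only peaks one of 11.9 in the Control list (5.47 and 20.6). Median widths were 283 bp for HF-only and 299 bp for Control-only regions, against 518 bp on HF and 573 bp on Control for the bases covered in shared regions. Among the weakest 10% of peaks, 35.0% of the HF list had no Control peak and 65.6% of the Control list had no HF peak. Above percentile 60 the numbers were 0 of 13193 regions of the HF list and 1 of 14296 regions of the Control list.

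**Figure D2:**
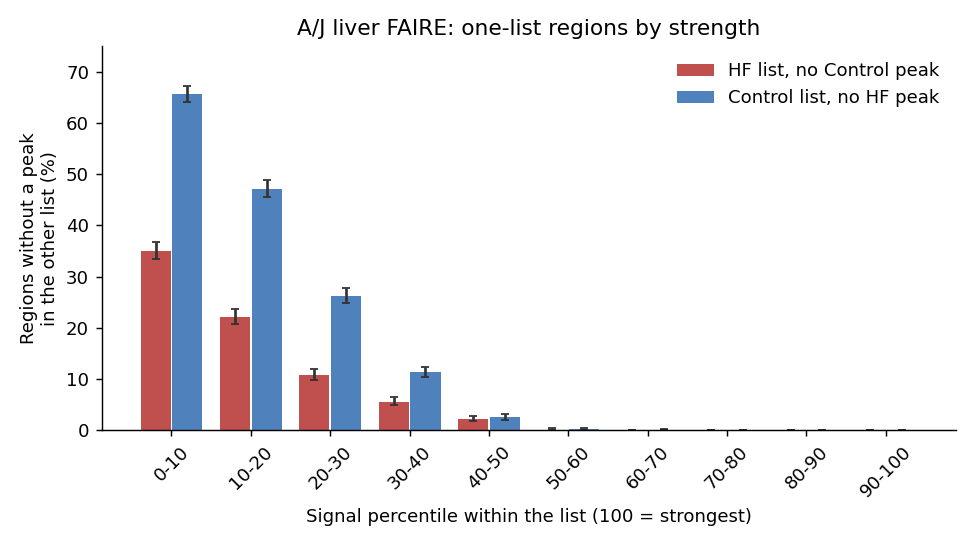
Share of regions of the HF list without a Control peak and of the Control list without an HF peak, in percent, by steps of 10 points of signal percentile within each list. Error bars are 95% Wilson intervals; the shares were 35.0% and 65.6% in the weakest step and at most 0.224% in each step above percentile 50.

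On the shared side of the 1 bp border, in the 29432 shared regions with 1 peak in each list, the smallest overlap was 181 bp. On the other side, 243 HF-only regions (9.91%) and 769 Control-only regions (14.2%) had a peak of the other list within 500 bp, the nearest of them directly adjoining. HF-only regions were the more isolated, at a median distance of 17463 bp from the nearest Control peak, against 5491 bp from Control-only regions to the nearest HF peak. More than 10 kb away lay 59.2% of HF-only regions (57.3 to 61.2) and 37.5% of Control-only regions (36.3 to 38.8).

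HF-only and Control-only regions differed in the lists that the comparison did not use. Of HF-only regions 69.8% held a peak in at least 1 C57BL/6J list (68.0 to 71.6) and 48.0% in all of them (46.0 to 50). Of Control-only regions 20.6% (19.5 to 21.7) and 5.58% (5.0 to 6.22) did. Shared regions stood at 84.4% and 69.8%. In the C57BL/6J Control list alone, which had the lowest share of A/J regions of the C57BL/6J lists, a peak was held by 63.4% of HF-only (61.5 to 65.3) and 11.3% of Control-only regions (10.4 to 12.1). The A/J Reversal list showed the opposite order, with a peak in 20.7% of HF-only regions (19.1 to 22.3), 57.4% of Control-only regions (56.1 to 58.7) and 96.0% of shared regions.

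**Figure D3:**
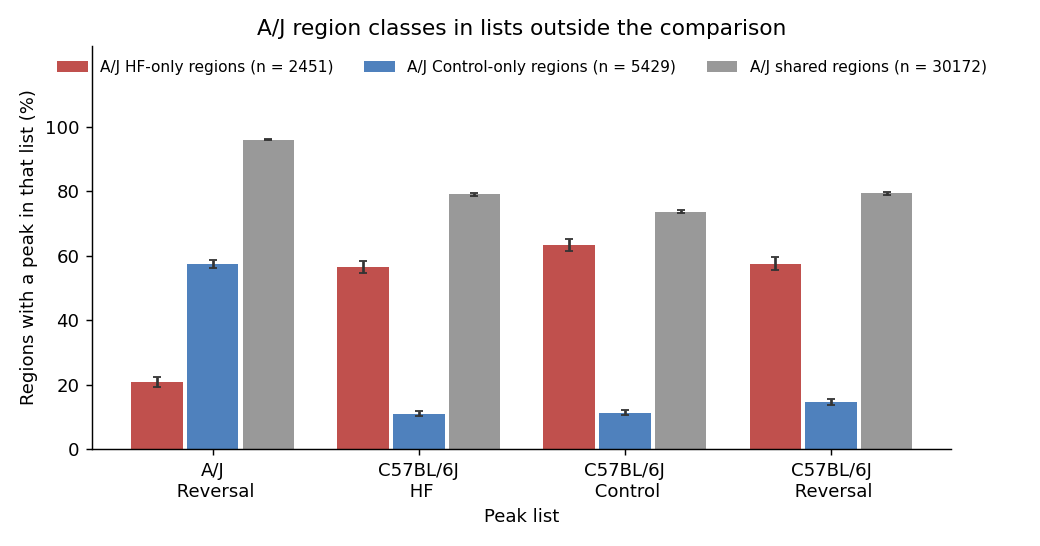
Share of A/J HF-only, Control-only and shared regions, in percent, that held a peak in each of 4 lists outside the comparison, with 95% Wilson intervals. HF-only regions reached 56.5% to 63.4% in the C57BL/6J lists and 20.7% in A/J Reversal, and Control-only regions 11.0% to 14.7% and 57.4%.

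This separation grew with strength on the HF side. Of HF-only regions in the weakest 10% of the HF list, 31.3% had peaks in every C57BL/6J list (352 of 1126). Between percentiles 20 and 30 it was 67.8% (238 of 351), and from percentile 30 up it was 93.4% (242 of 259, 89.7 to 95.9). Control-only regions showed little of this, at 4.51% in the weakest 10% and 7.19% from percentile 30 up. For them the share listed in A/J Reversal was higher in stronger regions, with a peak in 36.9% of the weakest 10% and in 94.6% from percentile 30 up (474 of 501).

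HF-only regions thus fell into subsets with different values. The 1177 with a peak in all C57BL/6J lists had a median percentile of 16.3 in the A/J HF list and lay at a median of 48938 bp from the nearest A/J Control peak. In the C57BL/6J lists their median percentile was 39.5 on HF, 54.6 on Control and 36.2 on Reversal. The 740 HF-only regions without any C57BL/6J peak were weaker and less isolated, at a median percentile of 6.85 and a distance of 5861 bp. An A/J Reversal peak was present in 10.8% of the first subset (9.14 to 12.7) and in 36.4% of the second (33.0 to 39.9). No such split appeared among Control-only regions, where 59.1% of the 303 with all C57BL/6J lists and 57.3% of the 4311 with none held a Reversal peak.

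The diet call in C57BL/6J was set beside that in A/J. An HF peak without a Control peak was found in C57BL/6J at 98 A/J HF-only regions (4.0%, 3.29 to 4.85), 246 Control-only regions (4.53%, 4.01 to 5.12) and 2477 shared regions (8.21%). The reverse C57BL/6J call, a Control peak without an HF peak, was found at 267 HF-only regions (10.9%, 9.72 to 12.2), 262 Control-only regions (4.83%, 4.29 to 5.43) and 852 shared regions (2.82%). At A/J HF-only regions the opposite C57BL/6J call was therefore the more frequent one. These shares are limited by how many regions hold any C57BL/6J peak. Among regions with at least 1, the same call was found at 5.73% of HF-only (4.72 to 6.93) and 23.4% of Control-only regions (21.0 to 26.0). For the 1118 such Control-only regions that was 262 with the same call, against 246 with the opposite call. For the 1711 such HF-only regions it was 98 against 267.

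The strongest HF-only regions were short and were listed in C57BL/6J on all diets. On chromosome 18 from 26748562 to 26748883 the signal was 0.309 on HF, at percentile 56.0, and the region held peaks at percentiles 70.5, 84.5 and 66.4 in C57BL/6J HF, Control and Reversal. The next (chromosome 12, 17974103 to 17974443) reached 0.294 on HF and stood at percentiles 84.9, 94.8 and 79.7 in the same C57BL/6J lists. On chromosome 10 from 92232651 to 92232988 the signal was 0.281, with C57BL/6J percentiles of 62.5, 76.2 and 57.7. In all of these regions the C57BL/6J peak ranked above the A/J HF peak, and the A/J Reversal peak was weak, at percentiles 19.7, 8.83 and 15.8.

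The other named HF-only regions were less alike. A region of chromosome 16, 15885465 to 15885852, reached 0.279 on HF and was stronger in A/J Reversal, at percentile 62.8, than in C57BL/6J HF and Control, at 20.5 and 6.74, and it stood at 62.6 in C57BL/6J Reversal. On chromosome 1 from 111744254 to 111744578 the signal was 0.262, no Reversal peak was listed, and C57BL/6J percentiles were 45.8 on HF, 65.8 on Control and 46.3 on Reversal. All 5 named HF-only regions were between 322 and 388 bp long.

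Among Control-only regions the strongest were longer, between 420 and 647 bp, and all 5 held an A/J Reversal peak. The first (chromosome 6, 121121059 to 121121577) reached 0.453 on Control, at percentile 60.6, and stood at percentile 52.1 on Reversal. The second, on chromosome 4 from 140903226 to 140903818, had 0.432 on Control and percentile 53.0 on Reversal. Their C57BL/6J percentiles were 20.7 and 6.38 on HF, 54.7 and 39.7 on Reversal, and on Control 19.4 at the first, with no peak at the second. The remaining ones lay on chromosome 10 from 80429012 to 80429431, chromosome 11 from 5906212 to 5906858, and chromosome 15 from 83910286 to 83910826. Their Control signals were 0.381, 0.370 and 0.369, and in C57BL/6J each held a peak in the Reversal list alone.

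One-list regions were spread over all chromosomes. The HF-only share ran from 4.61% of regions on chromosome 19 to 9.26% on chromosome 18, and the Control-only share from 13.2% on chromosome 10 to 15.4% on chromosome 4. The Control-only share thus varied less between chromosomes than the HF-only share. Of 1120 windows of 1 Mb with at least 10 regions, 301 held no HF-only region and 81 no Control-only region.

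A few windows held many HF-only regions. On chromosome 5 from 15000001 to 16000000, 15 of 20 regions were HF-only and none was Control-only. The A/J HF list held 20 peaks there, against 5 in A/J Control. A/J Reversal held 5, and the C57BL/6J lists 3 on HF, 7 on Control and 3 on Reversal, so that this window was densest in the A/J HF list. On chromosome 1 from 85000001 to 86000000, 9 of 16 regions were HF-only and all 9 held a C57BL/6J peak. Here the lists differed by strain: 15 peaks in A/J HF against 7 in A/J Control, 2 in A/J Reversal, and 47, 64 and 43 in C57BL/6J HF, Control and Reversal. The third window, on chromosome 2 from 22000001 to 23000000, held 6 HF-only regions of 13.

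The windows with the highest Control-only shares held no HF-only region. On chromosome 4 from 35000001 to 36000000, 8 of 16 regions were Control-only, none of them had a C57BL/6J peak and 1 had a Reversal peak. The window held 10 peaks on A/J HF and 17 on A/J Control. The others, on chromosome 2 from 77000001 to 78000000 and from 6000001 to 7000000, held 5 of 10 and 7 of 15 Control-only regions.

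In shared regions peaks kept their place but were narrower on HF. Of the shared regions 97.5% had 1 peak in each list, and their summits lay a median of 7 bp apart, with 96.5% at most 50 bp apart. The median ratio of bases covered on HF to bases covered on Control was 0.948 (quartiles 0.877 and 0.993). HF peaks were narrower in 23405 regions (77.6%) and wider in 6573 (21.8%). In 59.0% of regions with 1 peak in each list the HF peak lay wholly inside the Control peak, and in 9.36% the Control peak lay inside the HF peak. The narrowing was even on both sides, with a median of 15 bp at each end of the peak. In C57BL/6J the median ratio was 0.993 (0.912 and 1.07).

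As a ratio, width changed least in the strong regions. In bp, the medians of the strongest 20% did not lie closer together than those of the weakest 20%. In the weakest 20% of shared regions the median covered width was 308 bp on HF and 339 bp on Control, a median ratio of 0.925. In the strongest 20% it was 1015 bp on HF and 1061 bp on Control, a median ratio of 0.970.

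Changes of width past 1.5 times went mostly one way. Regions at least 1.5 times narrower on HF numbered 1319 (4.37%), and regions at least 1.5 times wider 261 (0.865%). With each ratio divided by the median ratio, the counts were 1060 narrower and 325 wider. In C57BL/6J the shares without that division were 5.01% narrower and 2.76% wider. A peak in all C57BL/6J lists was held by 56.5% of the 1319 narrower and 69.0% of the 261 wider A/J regions. Over all shared regions the share was 69.8%, within the interval of the wider ones (63.1 to 74.3). The largest gain lay on chromosome 8 from 19720270 to 19723198, covered over 2929 bp on HF and 428 bp on Control, a ratio of 6.84. Gains followed on chromosome 3 from 9250505 to 9252035 (ratio 4.06) and on chromosome 9 from 56482972 to 56484458 (4.04). A pair on chromosome 11, from 3040414 to 3041887 and from 3090201 to 3091649, had 1474 and 1449 bp on HF against 387 and 381 bp on Control. All 5 had peaks in every C57BL/6J list.

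The regions that lost most width were long on Control. On chromosome 15 from 88914408 to 88916865 peaks covered 441 bp on HF and 2452 bp on Control, a ratio of 0.180. Similar losses were seen on chromosome 7 from 20287666 to 20289529 (349 bp on HF, 1864 bp on Control) and from 139507193 to 139509134 (401 bp on HF, 1942 bp on Control). The remaining ones lay on chromosome 5 from 130006621 to 130008075 and chromosome 17 from 35390605 to 35392025, with ratios of 0.210 and 0.243. The largest difference in signal rank among these regions was -12.3 percentile points (HF minus Control).

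For the order of signal, shared regions were ranked among themselves in each list, so that both rankings had the same length. Most regions kept their rank: 22162 (73.5%) differed by under 10 percentile points, and the median absolute difference was 5.24 points. A difference of at least 20 points upward on HF was found in 1008 regions (3.34%) and downward in 952 (3.16%). With percentiles taken within each whole list, whose lengths differ, the counts were 686 upward and 2084 downward. In C57BL/6J, 5.47% of shared regions stood at least 20 points higher on HF and 4.25% at least 20 points lower.

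**Figure D4:**
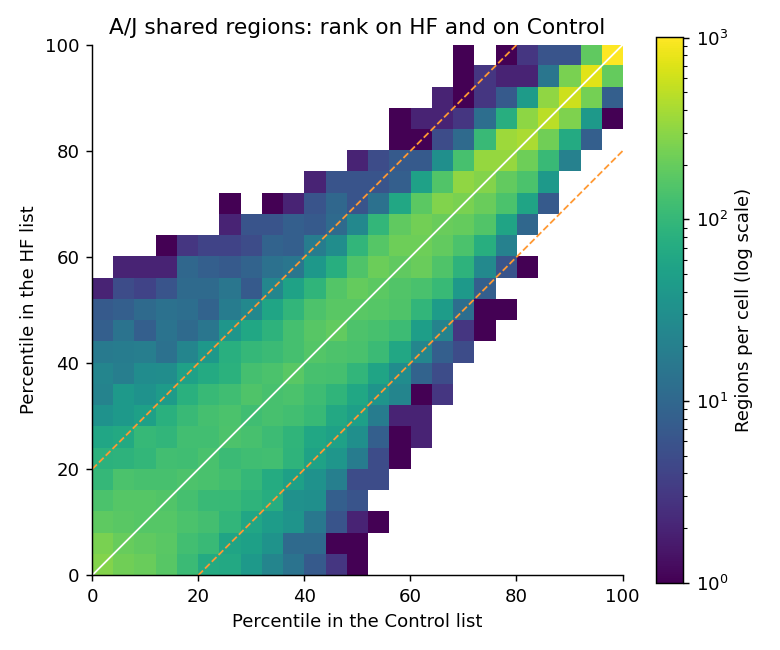
Number of A/J shared regions in cells of 4 by 4 percentile points, with the percentile in the HF list on the vertical axis and in the Control list on the horizontal axis, both among shared regions (100 is the strongest); colour is on a log scale. The solid line marks equal rank and the dashed lines a difference of 20 points; 1008 regions lie at or above the upper dashed line and 952 at or below the lower one.

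Rank changes fell in the weaker part of the lists. In the strongest 20% of shared regions 3 stood at least 20 points higher on HF and 0 lower, while between percentiles 20 and 40 there were 554 and 536. The strongest region of all, on chromosome 2 from 98506214 to 98507698, ranked first on both diets, with signals of 228 on HF and 253 on Control. The next, on chromosomes 1 (24618136 to 24623210), 2 (22442666 to 22446290), 13 (85265986 to 85267359) and 4 (79648084 to 79651281), differed by at most 0.00663 points. All of these were also above percentile 99 in every other list. The median signal was 0.259 in the A/J HF list and 0.3215 in the A/J Control list. What set these regions so far above the medians was not tested.

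Regions that ranked higher on HF were listed in C57BL/6J more often than regions that ranked lower. A peak in at least 1 C57BL/6J list was held by 90.1% of the higher regions (88.1 to 91.8) and 58.2% of the lower ones (55.0 to 61.3). A peak in all C57BL/6J lists was held by 80.4% of the higher regions (77.8 to 82.7) and 18.4% of the lower ones (16.1 to 21.0). Among regions that moved by under 10 points it was 75.8%. Among regions with a peak in all C57BL/6J lists 810 stood higher and 175 lower on HF, and among regions with none 100 stood higher and 398 lower. An A/J Reversal peak was held by 845 of the 1008 higher regions (83.8%) and by all 952 lower regions. Width moved with rank, since 94.4% of the lower regions were narrower on HF, against 18.5% of the higher ones.

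The largest rises were in short regions that were strong in C57BL/6J. On chromosome 18 from 9205965 to 9206359 the signal was 0.360 on HF and 0.144 on Control, a difference of 51.59 percentile points, and in C57BL/6J the region stood at percentiles 81, 91.4 and 74.8 on HF, Control and Reversal. On chromosome 2 from 39561837 to 39562175 the signal was 0.364 on HF and 0.146 on Control, and from 68513645 to 68513989 it was 0.308 on HF and 0.132 on Control. On chromosome 4 it was 0.317 on HF and 0.127 on Control from 5826178 to 5826510, and 0.332 on HF and 0.144 on Control from 54244038 to 54244375. In A/J Reversal all 5 ranked low or were not listed: 4 held a peak, at percentile 26.7 or below. In C57BL/6J Control all 5 ranked above percentile 80.

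The largest falls were in regions of middle rank in both A/J Control and A/J Reversal. On chromosome 7 from 146745625 to 146746009 the signal was 0.111 on HF and 0.433 on Control, a difference of -49.89 percentile points, and no C57BL/6J list held a peak. On chromosome 1 from 59008146 to 59008487 it was 0.124 on HF and 0.453 on Control, and C57BL/6J percentiles were 33.6, 9.45 and 41.4 on HF, Control and Reversal. The others lay on chromosome 7 (56649222 to 56649604), chromosome 3 (85001033 to 85001611) and chromosome 5 (152149222 to 152149600), with differences of -44.73, -44.43 and -42.45. All 5 stood between percentiles 45.9 and 51.0 in the A/J Reversal list.

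Ranks could be followed through all 6 lists in 20554 regions, ranked again among themselves in each list. Of these, 373 stood at least 20 points higher on A/J HF. Their median percentile was 42.0 on A/J HF and 14.1 on A/J Control, 17.9 on A/J Reversal, and 54.3, 68.6 and 54.4 on C57BL/6J HF, Control and Reversal. Regions were picked by the difference between A/J HF and A/J Control, so the order of those lists was fixed in advance. Of the lists not used to pick these regions, A/J Reversal had a lower median than A/J HF. The C57BL/6J lists had higher ones. The 282 regions that stood lower on A/J HF had median percentiles of 24.8 on A/J HF and 48.9 on A/J Control, 44.1 on A/J Reversal, and 22.9, 11.1 and 30.9 on C57BL/6J HF, Control and Reversal, so that A/J HF lay above C57BL/6J HF and Control and below C57BL/6J Reversal.

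The A/J diet difference ran with the strain difference and against the C57BL/6J diet difference. C57BL/6J Reversal ranked above A/J Reversal in 356 of the 373 higher regions (95.4%) and in 33 of the 282 lower ones (11.7%), against 50.6% of all 20554. C57BL/6J HF ranked above C57BL/6J Control in 42 of the 373 (11.3%) and in 224 of the 282 (79.4%), against 49.2% of all. Across the 20554 regions the A/J difference (HF minus Control) had a Pearson r of 0.545 and a Spearman rho of 0.549 with the difference of C57BL/6J minus A/J on Reversal. With the C57BL/6J difference of HF minus Control, r was -0.379 and rho -0.357. The lists on either side of each correlation carry different labels, with no list in common. C57BL/6J HF and Reversal, which enter these differences, held raised shares of A/J regions in the strain check, and the part of that in both correlations was not tested. Both correlations are across regions, which are not independent replicates, and are given as a description.

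**Figure D5:**
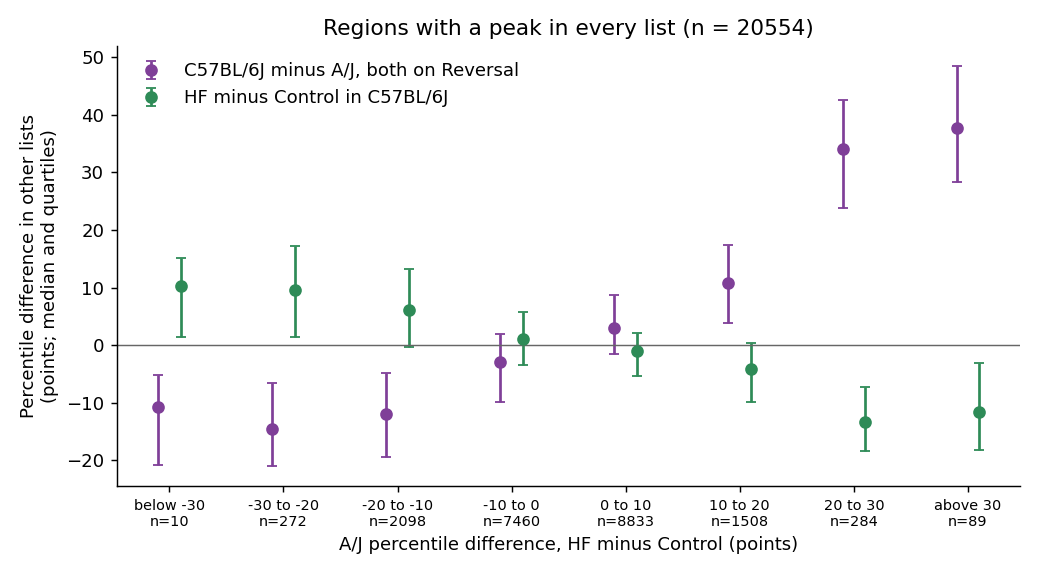
Median and quartiles of the percentile difference between C57BL/6J and A/J on Reversal, and between HF and Control in C57BL/6J, by the A/J difference of HF minus Control, in 20554 regions with a peak in every list. In regions 20 to 30 points higher on A/J HF the medians were 34.0 and -13.4 points, and in regions 20 to 30 points lower they were -14.5 and 9.55 points.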

How the data were processed

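Each deposited peak list gives position, summit and a signal per peak. The signal is the authors' value, on a scale not given in the sources used here, and the p and q columns hold no values. Tools listed in the submitters' processing notes, without version or role, are Bowtie2, DESeq2 and TopHat, with the build mm9. Peak caller and pooling of libraries are not given in the sources used here. Strain and diet of a list come from its name, and the weeks of the Reversal diet from the treatment protocol, since a diet tag differs from it. The summit is deposited as a distance from the peak start.

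Peaks were merged at 1 bp of overlap with Python 3.11.15 and pandas 2.3.3. Class calls, rank differences and width ratios were checked on simulated lists whose shared peaks had the same start. Peaks that adjoin or overlap by a few bp did not occur in them, so the 1 bp border was not tested. Percentiles were taken within a list for one-list regions and among shared regions for rank differences, with the highest signal per region. Thresholds were 20 percentile points and 1.5 times in width. Shares carry 95% Wilson intervals (scipy 1.17.1). Named were the 5 strongest regions of each class, the 5 largest rises, falls, gains and losses of width among regions with 1 peak in each list, the 5 strongest shared regions and 3 windows of each kind. The classes, lists and alternatives were chosen with earlier results of these data known. Expression tables were not used here.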

Additional observations from a re-analysis of the deposited data

Results flagged for a closer look

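Among regions with a peak in all 6 lists, the regions picked for a large rank change on HF in A/J moved the opposite way on HF in C57BL/6J. In regions that stood at least 20 percentile points higher on HF in A/J, the median C57BL/6J difference, HF minus Control, was -13.2 points. In regions that stood at least 20 points lower on HF in A/J, it was 9.63 points. Each strain and diet had 1 list, and the difference was not tested. The C57BL/6J HF list held 17.7% of the regions otherwise listed in A/J alone, against 5.65% for C57BL/6J Control, and the part of this was not tested.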

How the results depend on the processing

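Of 65 alternatives for the main counts, shares and correlations, 37 stayed within 1.5 times of the count or within the interval of the share, and no correlation changed sign. HF-only regions numbered 1545 with the strongest 75% of each list, 831 with the strongest 50%, 5 with the strongest 50% of the HF list against the whole Control list, 740 without and 1177 with all C57BL/6J peaks. Control-only regions numbered 2248 with the strongest 50% of each list, 9 with the strongest 50% of the Control list against the whole HF list, and 303 with all C57BL/6J peaks. Shared regions numbered 15615 with the strongest 50% and 4703 without a C57BL/6J peak. At 10 percentile points 3748 regions stood higher and 4262 lower on HF. At 20 points, 100 higher and 398 lower regions were without a C57BL/6J peak, and 175 lower regions held all C57BL/6J peaks. Within whole lists 2084 stood lower. At a ratio of 2, 69 regions were wider and 402 narrower. Among one-list regions with at least 1 C57BL/6J peak, 5.73% of HF-only regions were HF-only and 23.4% of Control-only regions Control-only in C57BL/6J. That was 98 and 262 regions, against 267 and 246 with the opposite C57BL/6J call. Reversal peaks were held by 17.9% of HF-only, 59.8% of Control-only and 96.5% of shared regions in the strongest 75%, and by 59.4% of Control-only and 96.5% of shared regions with peaks up to 500 bp apart merged. In the strongest 75% the A/J Control list held 4.79% of the regions in all C57BL/6J lists and in neither other A/J list. In the stronger 50% of regions r was 0.573 with the strain difference and -0.290 with the C57BL/6J diet difference. Some of these alternatives leave fewer peaks or regions, and the cause of the moves was not tested. With peaks up to 500 bp apart merged, 3 of the 5 named Control-only regions remained Control-only. The counts without and with all C57BL/6J peaks, and the alternatives for Reversal, strain, correlation and named-region values, were chosen after seeing the data. Leaving out a library was not run, since each list is 1 file per group. No paired analysis was possible because the lists carry no library numbers and the results come from no test.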
